A study of Mus musculus with 24 samples.

Results

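The Ifi200 cluster is a block of interferon-inducible genes on mouse chromosome 1. The 10 genes described here, Ifi202b, Mndal, Ifi203, Ifi204, Ifi205, Ifi207, Ifi208, Ifi209, Ifi213 and Aim2, were taken by symbol from the 55487 genes of a deposited table of mammary gland RNA from 24 mice. They were selected on their TPM in the 12 glands of each of 2 transgenic lines, because cluster genes had been seen to differ between the lines, so each difference between the lines that is given for them is a description with no test. All 10 passed the minimum for testing, which was 1 TPM (a share of all transcripts in a library that allows for gene length) in at least 3 samples. Ifi202b and Ifi208 passed only through the CYP19A1 line, and Ifi213 only through the Esr1 line.

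The study asked how over-expression of the oestrogen receptor gene Esr1 or of the aromatase gene CYP19A1 affects the ageing gland, and whether tamoxifen or letrozole acts differently in each. All mice carried MMTV-rtTA, a tetracycline-dependent activator under a promoter that is best known for activity in mammary epithelium, with either tet-op-Esr1 or tet-op-CYP19A1 as the induced transgene. Each line gave 3 mice aged 18 months, with the transgene induced for 6 months, and 9 mice aged 20 months, with 8 months of induction. Of those 9, 3 had no drug, 3 had tamoxifen and 3 had letrozole, given by an implant under the skin for the last 2 months. An implant held 25 mg of tamoxifen, which modulates the oestrogen receptor, or 2.5 mg of letrozole, which inhibits aromatase, for release in 60 days. The deposited column names carry PLA for the 20-month groups without a drug, called untreated here, and 6MDoxy for the 18-month groups. The sample titles do not explain these marks. A difference between the ages cannot be told apart from the length of induction or from what the marks stand for. No mouse without a transgene was among the 24, and the sources used here do not give the strain background of the lines. A difference between the lines therefore cannot be told apart from a difference in strain background or in the place where a transgene was inserted.

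Genes of this family encode PYHIN or HIN-200 proteins, most of which join a pyrin domain, used to bind other proteins, to a HIN domain that binds DNA. Interferons induce many of them, and they are best known in macrophages and other immune cells. Aim2 senses DNA in the cytosol and recruits the adaptor Pycard to form an inflammasome. Ifi204 is a mouse relative of human IFI16, and Ifi202b lacks the pyrin domain, can restrain Aim2 and is known to vary in expression between inbred mouse strains. The genes are close copies of each other, so an estimate of their levels can move reads from one to another.

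The start regions of the members show both points, the interferon element and the likeness between copies. RefSeq start windows (250 bases before to 50 after a transcript start, build GRCm38.p6) were found for 9 of the 10 members, and Ifi204 was not matched. The core of the interferon-stimulated response element, GAAA and again GAAA with any 2 bases between them, was searched on both strands. It was present in a window of 6 of the 9 members (Mndal, Ifi203, Ifi205, Ifi207, Ifi208 and Ifi213), against 3.44% of all 32851 windows of this length, and was not in the windows of Ifi202b, Ifi209 or Aim2. The letters TTCNNNGAA, a STAT site that does not overlap that core, were found among the members only in Ifi202b, 148 bases before its start, against 8.3% of all windows. A match describes the letters only. The 250 bases before the start are printed for the 4 members whose levels did not overlap between the lines (Ifi202b, Mndal, Ifi205 and Ifi213) and for Ifi203 and Ifi208, near copies of Mndal and Ifi213 at this place, each read 5′ to 3′ on the gene's own strand, with the core of the interferon element in capitals.
Ifi202b, chr1:173982845-173983094, minus strand: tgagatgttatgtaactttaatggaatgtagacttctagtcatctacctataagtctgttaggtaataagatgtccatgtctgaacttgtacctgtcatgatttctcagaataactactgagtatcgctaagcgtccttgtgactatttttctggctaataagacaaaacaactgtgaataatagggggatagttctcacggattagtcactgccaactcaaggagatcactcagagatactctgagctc
Mndal, chr1:173880188-173880437, minus strand: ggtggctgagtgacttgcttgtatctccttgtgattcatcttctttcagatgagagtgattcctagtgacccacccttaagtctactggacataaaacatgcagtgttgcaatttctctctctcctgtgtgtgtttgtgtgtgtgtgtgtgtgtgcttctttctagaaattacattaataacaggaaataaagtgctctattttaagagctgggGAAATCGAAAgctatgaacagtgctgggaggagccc
Ifi203, chr1:173942493-173942742, minus strand: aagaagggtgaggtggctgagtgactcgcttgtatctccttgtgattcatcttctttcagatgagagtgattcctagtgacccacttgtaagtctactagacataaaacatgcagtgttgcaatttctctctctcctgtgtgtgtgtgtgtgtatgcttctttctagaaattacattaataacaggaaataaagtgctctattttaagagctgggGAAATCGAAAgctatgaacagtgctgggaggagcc
Ifi205, chr1:174031756-174032005, minus strand: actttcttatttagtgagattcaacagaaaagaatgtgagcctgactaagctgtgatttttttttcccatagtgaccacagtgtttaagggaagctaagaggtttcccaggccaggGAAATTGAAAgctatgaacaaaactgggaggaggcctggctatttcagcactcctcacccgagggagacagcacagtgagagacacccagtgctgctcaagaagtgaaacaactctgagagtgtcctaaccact
Ifi208, chr1:173673415-173673664, plus strand: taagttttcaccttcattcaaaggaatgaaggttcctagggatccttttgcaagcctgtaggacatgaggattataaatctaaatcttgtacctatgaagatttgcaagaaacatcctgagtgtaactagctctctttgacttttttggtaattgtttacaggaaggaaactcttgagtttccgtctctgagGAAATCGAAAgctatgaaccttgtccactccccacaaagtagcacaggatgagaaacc
Ifi213, chr1:173599273-173599522, minus strand: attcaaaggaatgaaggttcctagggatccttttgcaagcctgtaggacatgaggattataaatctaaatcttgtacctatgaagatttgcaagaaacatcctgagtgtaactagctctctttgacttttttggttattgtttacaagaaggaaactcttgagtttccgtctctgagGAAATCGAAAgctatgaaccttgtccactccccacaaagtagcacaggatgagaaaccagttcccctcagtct
The Mndal and Ifi203 windows were identical at 97.5% of 239 aligned bases, and those of Ifi208 and Ifi213 at 99.1% of 235. Both pairs share the capital letters GAAATCGAAA, which begin 36 bases before the start in Mndal, 35 in Ifi203, 58 in Ifi208 and 73 in Ifi213. The Ifi202b window shared no more than 79.8% of aligned bases with that of any other member.

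Ifi202b, the member without a pyrin domain, was the gene with the widest gap. In the 12 Esr1 glands it ranged from 0.02 to 0.97 TPM with a median of 0.49, and in the 12 CYP19A1 glands from 17.15 to 28.35 TPM with a median of 26.0. Every CYP19A1 gland lay above every Esr1 gland. The means were 0.506 ± 0.285 TPM for the Esr1 line and 24.6 ± 3.39 TPM for the CYP19A1 line (SD, n = 12 each), a ratio of 48.7. The Esr1 values are low, so the ratio rests on estimates that the authors gave to 2 decimals. In the Esr1 line the 3 glands had 0.97, 0.65 and 0.51 TPM at 18 months and 0.93, 0.02 and 0.18 TPM at 20 months without a drug. With tamoxifen they had 0.28, 0.44 and 0.33 TPM, and with letrozole 0.72, 0.57 and 0.47 TPM. None reached 1 TPM in any condition. In the CYP19A1 line the glands had 28.35, 17.15 and 27.92 TPM at 18 months and 27.37, 26.1 and 25.85 TPM at 20 months, and the second 18-month gland was the lowest of that line. With tamoxifen they had 26.92, 26.42 and 23.3 TPM, and with letrozole 21.73, 20.73 and 23.71 TPM.

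Mndal, whose protein is named for its likeness to the human myeloid cell nuclear differentiation antigen, went the other way. It ranged from 11.52 to 41.68 TPM (median 23.4) in the Esr1 line and from 2.6 to 6.73 TPM (median 4.26) in the CYP19A1 line, without overlap. The means were 24.2 ± 8.16 and 4.33 ± 1.07 TPM (SD, n = 12 each), a ratio of 5.59 in favour of the Esr1 line. The spread in the Esr1 line was wide at 20 months without a drug, where the 3 glands had 41.68, 11.52 and 22.71 TPM. Its untreated CYP19A1 counterparts had 4.74, 3.86 and 4.23 TPM. Those groups were apart, as the lack of overlap between the lines requires.

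Ifi205 was the most abundant member in the Esr1 line. It ranged there from 13.98 to 53.57 TPM (median 34.0) against 6.54 to 11.98 TPM (median 10.5) in the CYP19A1 line, and the lines did not overlap. The mean was 33.6 ± 11.8 TPM in the Esr1 line and 10.2 ± 1.70 TPM in the CYP19A1 line (SD, n = 12 each), a ratio of 3.30.

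Ifi213, a low-level member, ranged from 0.73 to 3.54 TPM (median 1.37) in the Esr1 line and from 0.04 to 0.21 TPM (median 0.085) in the CYP19A1 line. The lines did not overlap, and the Esr1 mean of 1.55 ± 0.806 TPM was 15.8 times the CYP19A1 mean of 0.0975 ± 0.0425 TPM (SD, n = 12 each). Its near twin at the promoter, Ifi208, had the opposite order. Ifi208 ranged from 0.27 to 0.66 TPM (median 0.36) in the Esr1 line and from 0.49 to 1.95 TPM (median 0.92) in the CYP19A1 line, with 10 of 12 CYP19A1 glands above all Esr1 glands. The CYP19A1 mean of 0.953 ± 0.373 TPM was 2.38 times the Esr1 mean of 0.401 ± 0.130 TPM (SD, n = 12 each).

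Ifi209 leaned to the Esr1 line with overlap. It ranged from 1.0 to 4.24 TPM (median 1.87) there and from 0.59 to 1.88 TPM (median 0.95) in the CYP19A1 line, where 6 of 12 glands lay below all Esr1 glands. The means were 2.15 ± 0.896 and 1.03 ± 0.361 TPM (SD, n = 12 each), a ratio of 2.09.

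The ranges of the other 4 members overlapped widely between the lines. Ifi204 and Ifi207 leaned to the Esr1 line, with mean ratios of 1.26 and 1.31, and Aim2 and Ifi203 had similar means. Aim2, the inflammasome sensor, had 3.54 ± 1.26 TPM in the Esr1 line and 3.59 ± 1.00 TPM in the CYP19A1 line (SD, n = 12 each), with ranges of 1.66 to 5.7 and 2.46 to 5.72 TPM. Ifi204, the IFI16 relative, had 15.4 ± 4.53 and 12.3 ± 2.16 TPM, with ranges of 6.73 to 22.13 and 8.14 to 14.49 TPM. Ifi203 had 17.0 ± 4.63 and 15.9 ± 3.18 TPM, and Ifi207 had 10.7 ± 3.48 and 8.21 ± 2.18 TPM. A gap without overlap between the lines was thus not shared by every gene of the block.

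**Figure D1:**
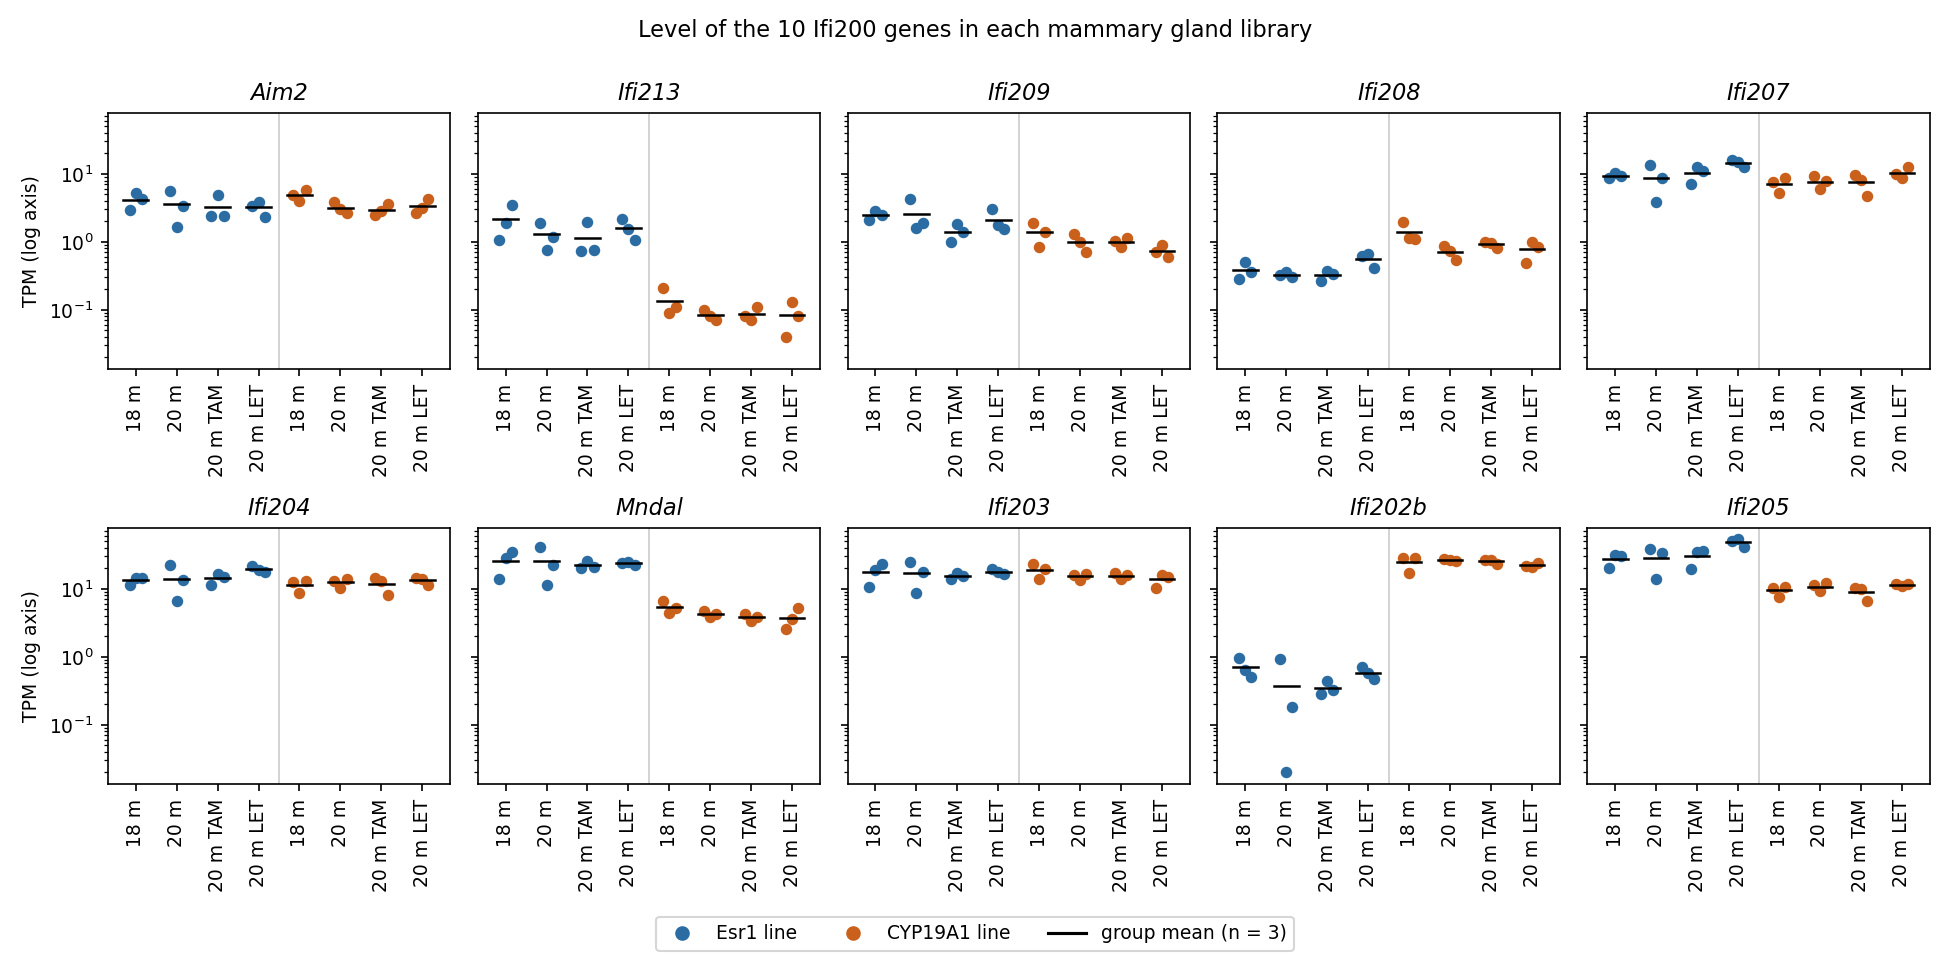
TPM of each member on a log axis in each of the 24 glands (points, 3 per group) with the group mean (bars), by line, age in months and drug (TAM, tamoxifen; LET, letrozole). Ifi202b lies under 1 TPM in all 12 Esr1 glands and over 17 TPM in all 12 CYP19A1 glands, while Mndal, Ifi205 and Ifi213 lie lower in the CYP19A1 line without overlap.

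Over all 12 against 12 glands, 1 member was higher in the CYP19A1 line without overlap (Ifi202b) and 3 were lower without overlap (Mndal, Ifi205 and Ifi213). Of all 19325 genes tested, 0.429% were higher and 0.269% were lower without overlap (0.699% together). The rule that chose the members used this contrast, so nothing is read from the difference between these shares. Leaving out a library cannot make separate groups overlap, so it could only raise these counts. They stayed at 1 and 3 with each of the 24 libraries left out in turn.

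Within each of the 4 conditions, 3 glands stood against 3, and the groups of 12.4% (18 months), 21.6% (20 months), 17.7% (tamoxifen) and 17.6% (letrozole) of all genes did not overlap in one direction or the other. At 18 months Ifi202b and Ifi208 were higher and Mndal, Ifi205, Ifi207, Ifi209 and Ifi213 lower without overlap, against 8.86% and 3.54% of all genes. At 20 months without a drug Ifi202b and Ifi208 were higher and Mndal, Ifi205, Ifi209 and Ifi213 lower, against 8.55% and 13% of all genes. With tamoxifen Ifi202b and Ifi208 were higher and Mndal, Ifi205 and Ifi213 lower, against 10.3% and 7.41%. With letrozole Ifi202b was higher and 7 members were lower (Mndal, Ifi203, Ifi204, Ifi205, Ifi207, Ifi209 and Ifi213), against 3.95% and 13.6%. For Ifi202b, Mndal, Ifi205 and Ifi213 the separation in all 4 conditions follows from their lack of overlap over all glands and adds nothing to it. Letrozole was the condition with the most lower members, and the margin of Ifi207 was narrow. The lowest Esr1 gland for Ifi207 had 12.62 TPM there and the highest CYP19A1 gland 12.6 TPM.

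The size of the gap was compared across conditions on the log2(TPM + 1) scale, where a pseudocount of 1 TPM was added and the change of low genes is understated. Ifi202b was higher in the CYP19A1 line by 3.87 at 18 months, 4.37 at 20 months, 4.30 with tamoxifen and 3.86 with letrozole (SE of the fit 0.20 each). Mndal had differences of -1.96, -2.15, -2.27 and -2.40 in the same order (SE 0.33). Ifi205 had -1.43, -1.22, -1.63 and -1.97 (SE 0.29), and Ifi213 had -1.40, -1.05, -0.93 and -1.23 (SE 0.24 each). The signs of these genes were fixed by their lack of overlap over all glands, so only the sizes are described. Ifi208 had 0.78, 0.36, 0.54 and 0.17 (SE 0.15), and Ifi209 had -0.57, -0.78, -0.26 and -0.82 (SE 0.23). For these genes the smallest gap was near its standard error. The difference between conditions was not tested, because it is built from the line differences by which the genes were chosen.

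**Figure D2:**
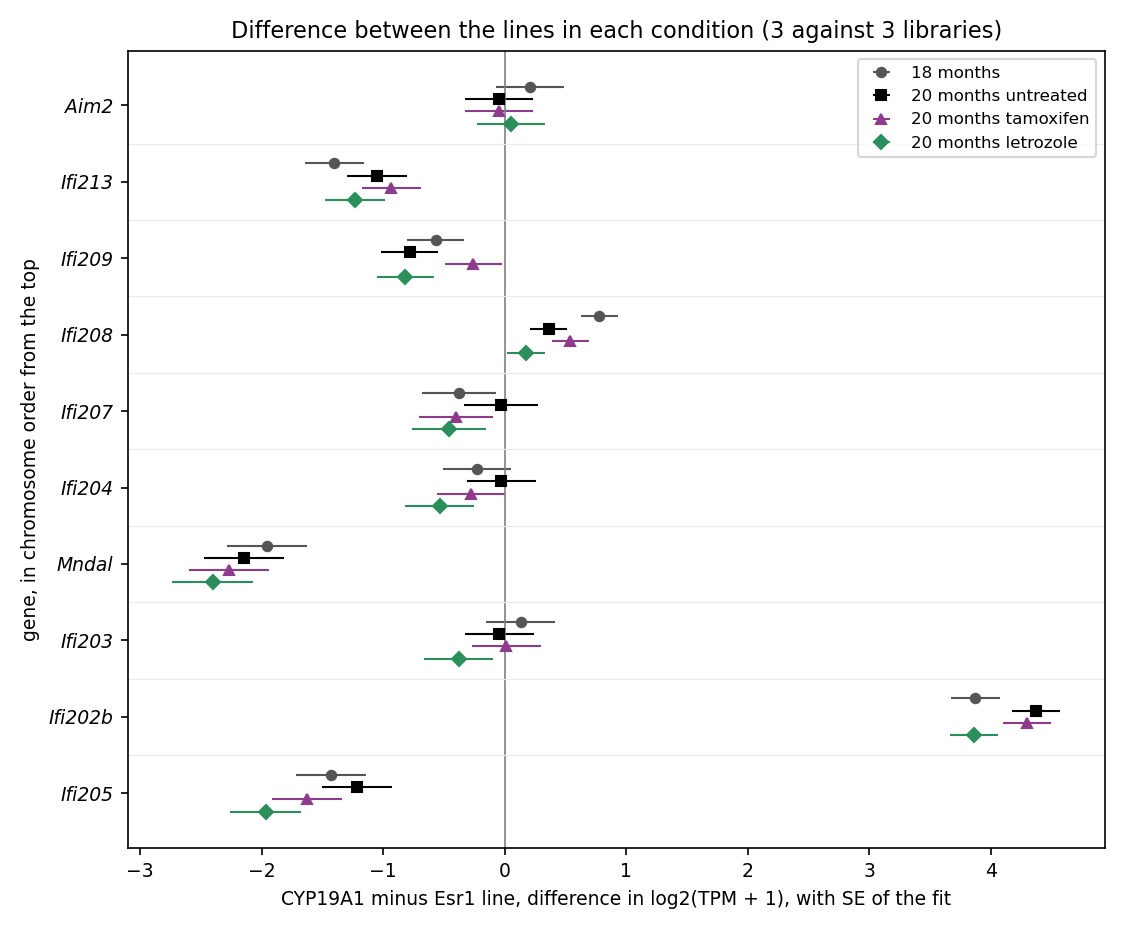
CYP19A1 minus Esr1 difference in log2(TPM + 1) for each member (rows, in chromosome order) in the 4 conditions (markers, 3 against 3 glands), with the standard error of the fit as bars. Ifi202b lies between 3.86 and 4.37 and Mndal between -2.40 and -1.96 in all conditions, while Aim2 and Ifi203 lie near 0 in most. Ifi204 lies between -0.54 (letrozole) and -0.03 (20 months untreated).

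The makeup of the family differed between the lines. In the Esr1 line the order of mean levels was Ifi205, Mndal, Ifi203, Ifi204, Ifi207, Aim2, Ifi209, Ifi213, Ifi202b and Ifi208. In the CYP19A1 line it was Ifi202b, Ifi203, Ifi204, Ifi205, Ifi207, Mndal, Aim2, Ifi209, Ifi208 and Ifi213. Ifi202b stood ninth in the Esr1 line and first in the CYP19A1 line, and Mndal second and sixth. Not all neighbours in these orders were apart. Ifi205 was above Mndal in 9 of 12 Esr1 glands, Ifi203 was above Ifi204 in 8 of 12, Ifi202b was above Ifi208 in 8 of 12, and Ifi209 was above Ifi208 in 7 of 12 CYP19A1 glands. Ifi202b made up 30.4% ± 2.78 (SD, n = 12) of the summed TPM of the 10 genes in the CYP19A1 line and 0.461% ± 0.320 in the Esr1 line. Mndal made up 5.32% and 22.2%, and Ifi205 12.5% and 30.5%, in the same order of lines. The sum itself was 81.2 ± 10.2 TPM in the CYP19A1 line and 109 ± 30.8 TPM in the Esr1 line (SD, n = 12 each), and the lines overlapped.

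Genes with near-copy start windows, and the pseudogene Ifi203-ps, were also summed. Transcripts were not aligned to each other, so the likeness of the windows does not show that these genes trade reads. Mndal, Ifi203 and the pseudogene Ifi203-ps together had 26.7 ± 5.21 TPM in the CYP19A1 line and 44.0 ± 13.5 TPM in the Esr1 line, with overlap, against no overlap for Mndal alone. Ifi203-ps had 6.47 ± 1.12 TPM in the CYP19A1 line and 2.83 ± 0.895 TPM in the Esr1 line, the opposite order to Mndal, with 11 of 12 CYP19A1 glands above all Esr1 glands. Ifi208, Ifi213 and Ifi206 together had 1.13 ± 0.448 and 2.55 ± 1.12 TPM, also with overlap. The start window of Ifi206 was identical to that of Ifi208 at 99.6% of 232 aligned bases. Ifi206, too low to be tested, had 0.0800 ± 0.0574 TPM in the CYP19A1 line and 0.602 ± 0.335 TPM in the Esr1 line, without overlap, like Ifi213. Ifi205 with Ifi211, whose windows were identical at 93.4% of 151 aligned bases, summed to 18.6 ± 2.49 and 40.3 ± 13.8 TPM (SD, n = 12 each). The lines again overlapped, against no overlap for Ifi205 alone, but only through the second untreated Esr1 gland at 20 months. That gland had a sum of 17.12 TPM, and the highest CYP19A1 sum was 21.44 TPM. Ribosomal RNA took up 17.4% of all TPM in that gland, and the part of this in the overlap was not tested. Ifi211 itself had 8.46 ± 0.925 and 6.73 ± 2.71 TPM, and Ifi214, too low to be tested, 0.335 ± 0.167 and 0.298 ± 0.127 TPM, both with overlap. How reads were shared between copies was not tested, and the levels of single genes in these sets are uncertain.

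Age was tested next, on a contrast that the choice of members did not use. limma's moderated test was run on all 19325 genes, with adjustment by Benjamini and Hochberg. No member passed between 20 and 18 months in the Esr1 line, in the CYP19A1 line or in their average, where 0.00517%, 9.45% and 4.21% of all genes passed. At an unadjusted p under 0.05 the counts were 0, 1 and 1. They are not read, because the share of all genes at that cut is not given. The member differences ran from -0.42 (Ifi213) to -0.03 (Ifi209) in the Esr1 line and from -0.49 (Aim2) to 0.18 (Ifi205) in the CYP19A1 line, on the log2(TPM + 1) scale. Their medians, -0.09 and -0.15, lay near the medians over all genes, -0.14 and -0.23. Median-ratio scaling moved the medians over all genes to 0.01 and -0.02. Ifi208 had 1.95, 1.13 and 1.09 TPM at 18 months and 0.87, 0.73 and 0.54 TPM at 20 months in the CYP19A1 line, so the groups did not overlap. It reached 1 TPM in 5 glands, and the 3 CYP19A1 glands at 18 months were among them, so it met the minimum for testing through the group that was high, and its test is not read. It was the member that moved the count in the CYP19A1 line from 0 to 1 without the third CYP19A1 gland at 18 months, the first Esr1 gland at 18 months or the second Esr1 gland at 20 months.

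No member passed with tamoxifen. The counts were 0 of 10 in the Esr1 line, the CYP19A1 line and their average. Of all genes, 1.55%, 0.16% and 0.492% passed in limma. At an unadjusted p under 0.05 the member counts were 1, 0 and 0, again not read without the share of all genes. Ifi209 in the Esr1 line had the widest difference. It had 1.0, 1.83 and 1.38 TPM with tamoxifen and 4.24, 1.61 and 1.91 TPM without, a difference of -0.52 ± 0.23 (SE, adjusted p = 0.24, limma), and the groups overlapped.

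Letrozole gave the widest drug differences of the members, in the Esr1 line, again with 0 of 10 past the threshold against 8.65% of all genes in limma. In the CYP19A1 line and in the average the counts were also 0, against 0.0207% and 3.22%. At an unadjusted p under 0.05 the counts were 3 in the Esr1 line, 0 in the CYP19A1 line and 2 in the average. The share of all genes at that cut is not given, so these 3 counts are not read. Ifi205 had 50.46, 53.57 and 40.59 TPM in the Esr1 glands with letrozole and 38.58, 13.98 and 33.22 TPM in those without. All letrozole glands were above all untreated ones, and the difference was 0.84 ± 0.29 (SE, adjusted p = 0.074, limma). Ifi207 had 16.03, 15.15 and 12.62 TPM with letrozole and 13.4, 3.82 and 8.8 TPM without, with overlap, and a difference of 0.82 ± 0.31 (SE, adjusted p = 0.097, limma). Ifi204 had 21.95, 19.22 and 17.9 TPM with letrozole and 22.13, 6.73 and 13.37 TPM without, and a difference of 0.59 ± 0.28 (SE, adjusted p = 0.19, limma). In the CYP19A1 line the same genes differed by 0.09 ± 0.29, 0.39 ± 0.31 and 0.08 ± 0.28 (adjusted p of 1 for each, limma). Whether the lines differ in this response was not tested. In the average of the lines, 11 of 12 mammary epithelial markers were lower with letrozole and 0 of 12 macrophage markers changed. Over all 10 cell type lists 14 of 93 markers passed (15.1%, against 3.22% of all genes), and the part of cell makeup in the member values was not tested. That count was 0 without the first or second untreated CYP19A1 gland, the first CYP19A1 letrozole gland or the second Esr1 letrozole gland. It was 3 without the third untreated or the first letrozole Esr1 gland. It was 7 and 8 without the second untreated and the third letrozole Esr1 gland. The share of all genes without each of these glands is not given.

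These letrozole values turned on single untreated glands. Without the first untreated Esr1 gland 4 members passed. They were Ifi204 (0.97, adjusted p = 0.016), Ifi205 (1.11, adjusted p = 0.018), Ifi207 (1.18, adjusted p = 0.014, limma) and Ifi202b, whose call is not read because it was under 1 TPM in all 12 Esr1 glands and was tested only through the CYP19A1 line. Ifi207 also passed in the average of the lines (0.78, adjusted p = 0.031, limma). Without the second untreated Esr1 gland none passed, and Ifi205 had 0.41 ± 0.24 (SE, adjusted p = 0.30, limma). The median over all genes moved too. In the Esr1 line it was -0.006 with all glands, 0.088 without the first untreated gland and -0.170 without the second. With median-ratio scaling Ifi205 (0.85, adjusted p = 0.011) and Ifi207 (0.84, adjusted p = 0.023, limma) passed in the Esr1 line and also in the average. The share of all genes that passed with letrozole is not given for these settings, so the number of members that passed is not read. The second untreated gland had the lowest level within the Esr1 line of 7 of the 10 members, and the first had the highest of 5. In that second gland rows annotated as ribosomal RNA took up 17.4% of all TPM, against a median of 0.0577% over the 24 glands, and the part of this in the result was not tested.

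**Figure D3:**
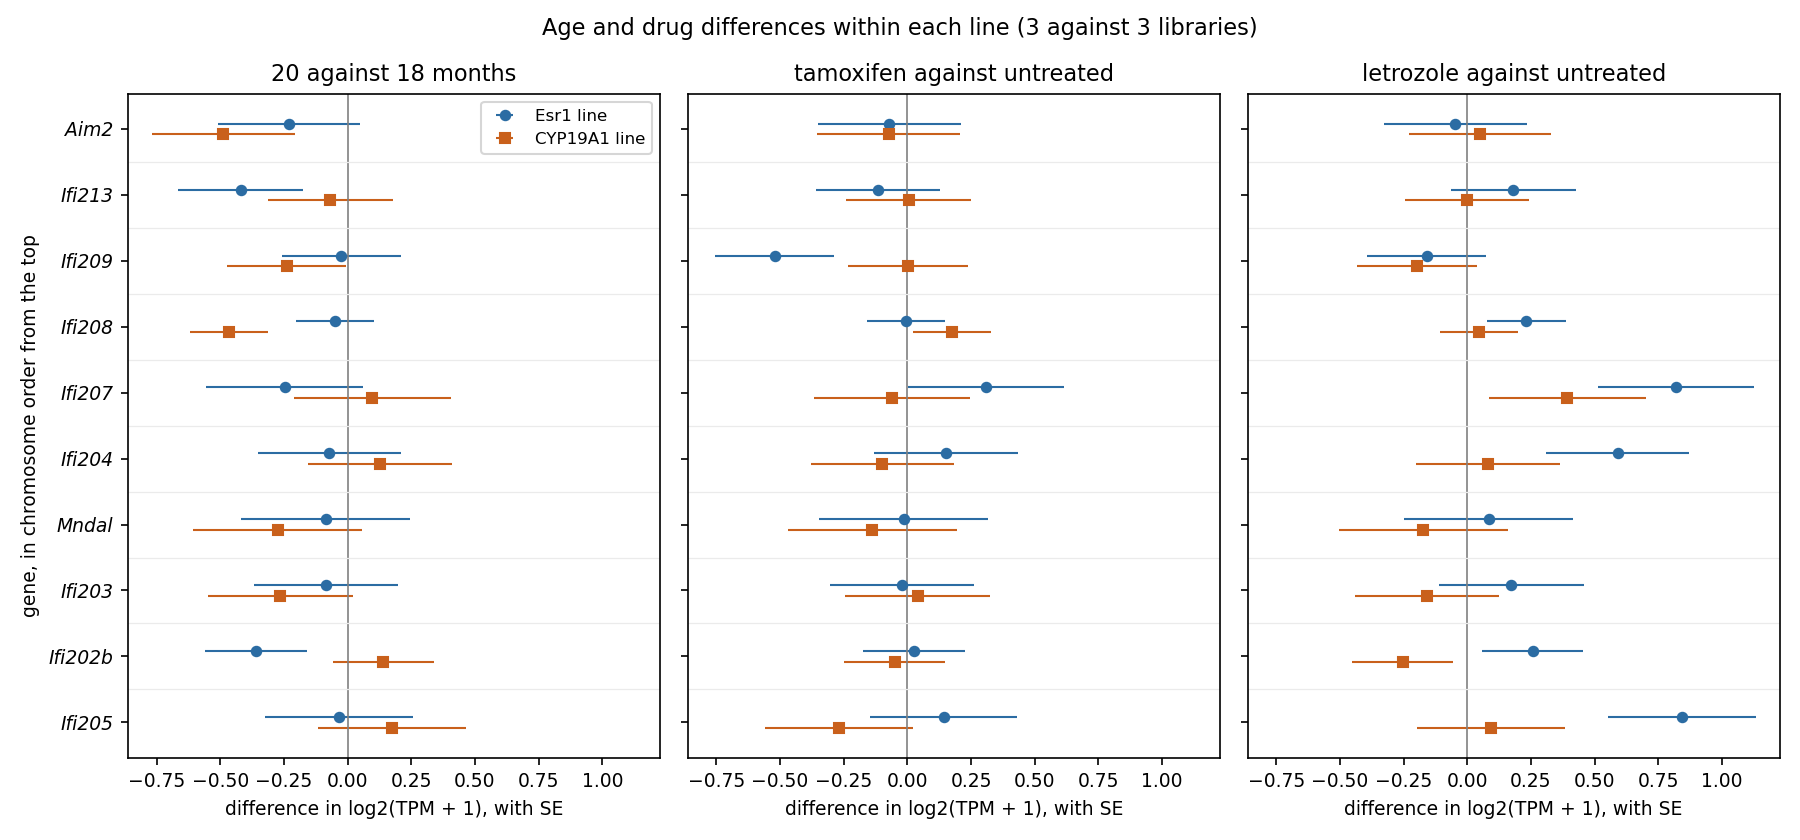
Difference in log2(TPM + 1) of each member (rows, in chromosome order) for age, tamoxifen and letrozole within the Esr1 line (circles) and the CYP19A1 line (squares), 3 against 3 glands, with the standard error of the fit. None of the 10 members passed an adjusted p of 0.05 in any panel, and the widest drug differences are those of Ifi205 and Ifi207 with letrozole in the Esr1 line.

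Genes near the cluster were examined, since the members lie side by side, between positions 173349547 and 174031755 of chromosome 1 (GRCm38.p6, RefSeq gene models). Positions were matched for 16192 of the 19325 genes tested. Of 97 other genes within 5 Mb, 20 (20.6%) passed in the averaged line contrast, 6 higher and 14 lower in the CYP19A1 line. The 97 include the family rows Ifi203-ps, which passed, and Ifi211, which did not. Without them 19 of 95 passed. The share was 9.71% of 206 genes between 5 and 20 Mb away, 7.74% of 685 on the rest of the chromosome and 6.97% of 15194 on other chromosomes, against 7.27% of all genes tested in limma. The passing genes lay unevenly. On the side of lower coordinates 18 of 73 passed, and on the side of higher coordinates 1 of 21. The other call was Ifi203-ps, 1 of 3 genes between the outermost members. These shares are descriptions, and their difference was not tested.

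The 8 neighbours with the smallest adjusted p, predicted genes left out, follow in that order. Catspere2, named for a sperm calcium channel, had 0.238 ± 0.0924 TPM in the CYP19A1 line and 1.24 ± 0.477 TPM in the Esr1 line without overlap, a difference of -0.83 ± 0.08 (SE, adjusted p = 2.1e-07, limma). Atp1a4, a sodium pump subunit, was higher in the CYP19A1 line by 0.84 ± 0.10 (adjusted p = 1.2e-05, limma), also without overlap. Ifi203-ps, the family pseudogene described above, was higher by 0.99 ± 0.13 (adjusted p = 2.2e-05, limma). Hsd17b7, an enzyme of cholesterol and oestradiol synthesis, differed by -0.78 ± 0.11 (adjusted p = 6.6e-05, limma). Copa, a coat protein of Golgi vesicles, differed by -0.45 ± 0.07, and Slamf7, an immune cell receptor, by -0.91 ± 0.15 (adjusted p = 0.00019 and 0.00035, limma). Ncstn, a subunit of gamma-secretase, differed by -0.40 ± 0.08 and Slamf9 by 0.70 ± 0.13 (adjusted p = 0.0019 each, limma). Of the 20 genes, 2 did not overlap between the lines.

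**Figure D4:**
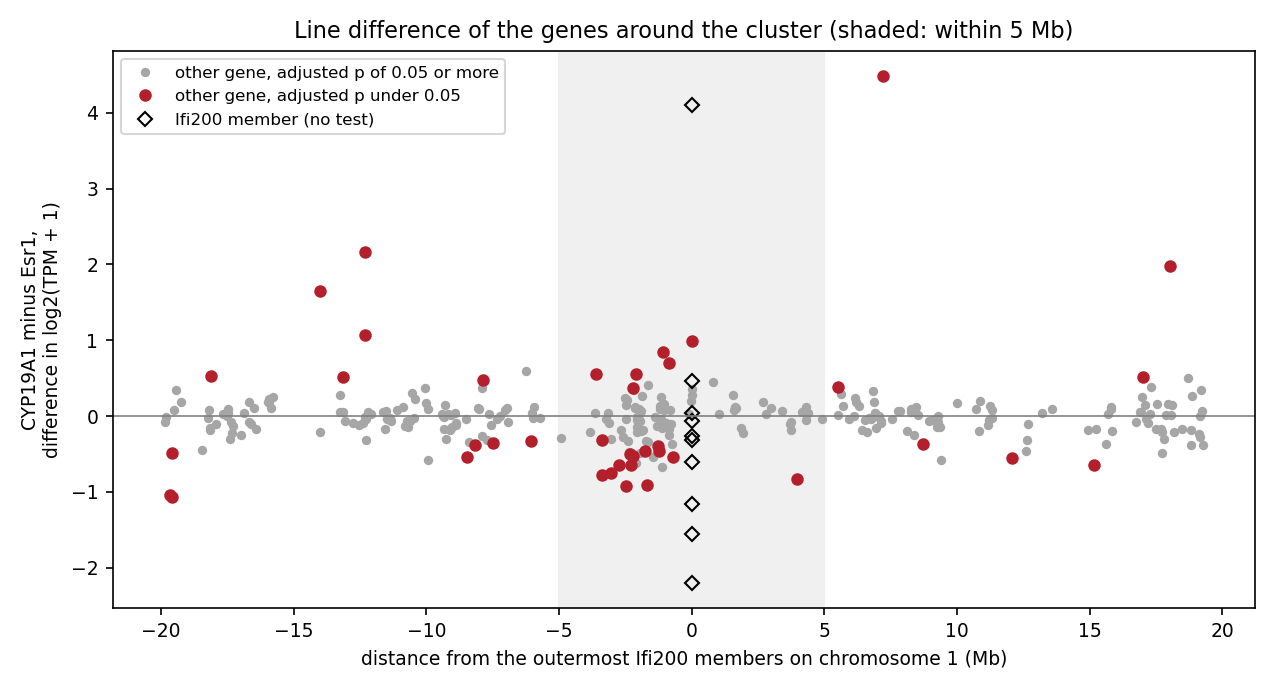
CYP19A1 minus Esr1 difference in log2(TPM + 1), averaged over the 4 conditions, of genes by their distance in Mb from the outermost members (0 within the cluster). Genes with an adjusted p under 0.05 are red, others grey, members are open diamonds without a test, and 20 of the 97 other genes in the shaded 5 Mb passed.

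Other genes of interferon and DNA sensing pathways were read beside the members. Of 35 other interferon-stimulated genes tested, 0 were higher and 4 lower in the CYP19A1 line, against 3.96% higher and 3.31% lower of all genes in limma, with a median difference of -0.04 against 0.00 over all genes. The 4 were Ifit3 (10.4 ± 3.82 TPM in the Esr1 line and 4.32 ± 1.43 TPM in the CYP19A1 line, -1.08 ± 0.17, adjusted p = 0.00034, limma), Ifit3b (-0.67 ± 0.15, adjusted p = 0.0058), Ifit1 (-0.57 ± 0.15, adjusted p = 0.022) and Ifih1 (-0.54 ± 0.10, adjusted p = 0.00096). Ifit proteins bind viral RNA, and Ifih1 senses double-stranded RNA. Of 17 genes of DNA sensing and the inflammasome and of 15 interferon receptors and signalling genes, none passed in limma, with medians of -0.08 and -0.03. With the lines averaged, 4 of the 67 genes of these 3 lists (5.97%) fell with age, near the 4.21% of all genes (Psmb8 by 0.76, Psmb9 by 0.74, Ifngr1 by 0.51 and Ddx41 by 0.40 on the log2 scale), 0 passed with tamoxifen in limma, against 0.492% of all genes, and 1 (1.49%) fell with letrozole, against 3.22%. That 1 was Pycard, the Aim2 adaptor, at -1.03 ± 0.18 (adjusted p = 0.018, limma). Pycard did not pass without the first or second untreated CYP19A1 gland, the first CYP19A1 letrozole gland or the second Esr1 letrozole gland. The share of all genes that passed with age is not given for fits with a library left out. The age count of 4 changed with the libraries used. It was 28 without the first Esr1 gland at 18 months, 21 without the first untreated Esr1 gland at 20 months, 11 without the third CYP19A1 gland at 18 months and 8 without the first untreated CYP19A1 gland at 20 months. It was 0 without the first CYP19A1 gland at 18 months, the second or the third untreated CYP19A1 gland at 20 months or the first CYP19A1 tamoxifen gland. It was 1 or 2 without the second or the third Esr1 gland at 18 months, the third untreated Esr1 gland at 20 months, any Esr1 letrozole gland or the second or the third CYP19A1 tamoxifen gland.

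Marker genes of the cells in the gland were read beside these results. All 24 glands had RNA of epithelium (Epcam 10.76 to 136.13 TPM), fat (Adipoq 110.69 to 1101.61 TPM), skeletal muscle (Acta1 6.51 to 7084.55 TPM) and leukocytes (Ptprc 11.82 to 48.07 TPM). Esr1, the labelled transgene of one line, had 14.5 ± 2.64 TPM there and 15.1 ± 2.38 TPM in the other (SD, n = 12 each). Mouse Cyp19a1 was at or under 0.27 TPM in every gland, and a human CYP19A1 transgene was not analysed here. Of 12 macrophage markers, 0 were higher and 1 lower in the CYP19A1 line (Mertk, -0.41 ± 0.09, adjusted p = 0.0077, limma). The score of that list, its mean log2(TPM + 1), was 3.67 to 4.74 in the Esr1 line and 3.43 to 4.69 in the CYP19A1 line. Of 11 T and NK cell markers none passed (0.92 to 2.10 and 0.75 to 2.71), of 8 B and plasma cell markers Cd22 was lower (1.10 to 2.60 and 1.11 to 1.87), and of 6 dendritic cell markers Siglech was higher and Itgax lower (0.99 to 1.83 and 1.19 to 1.89). Endothelial markers (3 of 9 higher) and white adipocyte markers (2 of 9 higher) also passed in the CYP19A1 line, and 2 of 12 epithelial markers (Krt14 and Krt5) were lower. Over all 10 cell type lists 11 of 93 markers passed (11.8%), against 7.27% of all genes in limma (3.96% higher and 3.31% lower). No defining marker read here was at 0 in any gland. In whole tissue, fewer cells of a type and less RNA per cell cannot be told apart, and the part of cell makeup in the member differences was not tested. With the macrophage score as a covariate, chosen after seeing the data, the averaged line difference of Ifi202b was 4.18 and that of Mndal -2.08, against 4.10 and -2.19 without it. Ifi205 had -1.46 against -1.56, Ifi213 -1.055 against -1.16 and Ifi208 0.50 against 0.46. The smaller differences moved more for their size. Ifi209 had -0.46 against -0.61, Ifi207 -0.19 against -0.32 and Ifi204 -0.14 against -0.27. Aim2 had 0.18 against 0.04, and Ifi203 changed sign (0.04 against -0.07).

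Members also varied together among glands of one group. After each group mean was taken out, the correlation between 2 members over the 24 glands ranged from 0.159 to 0.952 over the 45 pairs, with a median of 0.669. Mndal and Ifi203, whose start windows are near copies, had the highest value (0.952). Ifi208 and Ifi213, also near copies there, had 0.263. Glands share a library, its depth and its tissue, so these values are descriptions. The deviations of Ifi209 had r = 0.864 with the macrophage score, the highest of the 10 members. The genes whose deviations were most like a member's were taken from all genes at a mean of 1 TPM or more. Serpinb8 (Pearson r = 0.89, Spearman rho = 0.73, n = 24), Cbr3 (0.88, 0.74) and Kcnab2 (0.85, 0.81) were nearest to Ifi202b. Spopl (0.97, 0.93), Herc1 (0.96, 0.91) and Sp100 (0.96, 0.91) were nearest to Ifi203, and Nemf (0.96, 0.81), Gps2 (0.95, 0.81) and Thoc2 (0.95, 0.81) to Mndal. Dcn (0.94, 0.76), Zfp9 (0.92, 0.78) and Tatdn1 (0.92, 0.86) were nearest to Ifi204, and Bicc1 (0.91, 0.84), Ecm1 (0.90, 0.79) and Pdgfrb (0.89, 0.82) to Ifi205. Hrh1 (0.91, 0.84), Peli2 (0.87, 0.76) and Tmod2 (0.87, 0.81) were nearest to Ifi207. Evi2a (0.92, 0.92), Slc9a9 (0.91, 0.87) and Themis2 (0.91, 0.89) were nearest to Ifi209, and Cd37 (0.91, 0.84), Cd22 (0.91, 0.85) and Eps8 (0.90, 0.88) to Aim2. Ifi208 and Ifi213 had a mean under 1 TPM and were left out. For the 24 genes so named, 3 for each of 8 members, r lay between 0.74 and 0.95 without the 2 glands farthest from the median. The first or second untreated Esr1 gland at 20 months was among the glands left out in each case.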

How the data were processed

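RNA of whole mammary gland from 24 mice, 3 in each of 8 groups, was made into stranded libraries after ribosomal RNA was depleted, per the labels' protocols. The authors deposited TPM to 2 decimals for 55487 genes. RSEM 1.3.1, STAR 2.7.9a, Trim Galore 0.6.5, FastQC 0.11.9 and build mm10 are listed, per the submitters' processing notes, and the gene annotation was not given in the sources used here. TPM keeps no read depth, so depth is unknown and counting intervals were not computed; 14410 to 17684 genes reached 1 TPM per sample. TPM is a share of a library's RNA, so abundant RNAs shift all other values.

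Values were taken as log2(TPM + 1). The 19325 genes at 1 TPM or more in 3 or more samples entered 1 fit over 8 groups with limma 3.58.1 in R 4.3.3 (trend and robust settings, Benjamini-Hochberg adjusted p under 0.05), tested on simulated data. The labels call samples of a group biological replicates. Replicate numbers did not pair samples.

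The members and the 14 gene lists (176 of 180 genes in the table) were chosen with earlier results of these data known. The text names list members that passed, the 8 neighbours within 5 Mb with the smallest adjusted p and, for each member, the 3 genes with the highest r, predicted genes left out. Alternatives covered scaling, pseudocount, filter, covariates, a replicate block and leaving out each library.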

Additional observations from a re-analysis of the deposited data

Results flagged for a closer look

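In Ifi202b the letrozole glands lay on opposite sides of the untreated mean in the 2 lines. In the Esr1 line all 3 letrozole glands (0.72, 0.57 and 0.47 TPM) lay above the mean of the untreated glands (0.93, 0.02 and 0.18 TPM), but the groups overlapped. The difference was 0.26 on the log2(TPM + 1) scale (adjusted p = 0.44, limma). It was 0.53 without the first untreated Esr1 gland and 0.07 without the second, in which 17.4% of all TPM was ribosomal RNA. In the CYP19A1 line all 3 letrozole glands lay below the untreated mean, with a difference of -0.25 (adjusted p of 1, limma). Ifi202b was under 1 TPM in all 12 Esr1 glands and was tested only through the CYP19A1 line. The difference between the lines was not tested.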

How the results depend on the processing

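The line differences of the 10 members kept their direction under every alternative run, except those of Aim2 and Ifi203, which lay near 0 and took either sign. Ifi202b lay between 4.05 and 4.17 with each library left out. For Ifi202b, Mndal, Ifi205 and Ifi213 the lack of overlap fixed the sign when a library was left out or the pseudocount or filter changed. Estimates were the same as in the main fit with only the compared groups, no filter, no trend and robust settings or a replicate block. The members were chosen on this contrast, so the kept direction is a description. With a pseudocount of 0.1 TPM the low genes moved most: Ifi202b had 5.54, Ifi213 -2.94, Ifi208 1.04 and Ifi209 -0.96. The numbers of replicates did not pair the samples (correlation of same-numbered samples -0.448 to 0.345, median -0.0015), and the replicate block left 1350 genes called between the lines, against 1404. Median-ratio scaling called 2259 and rescaling without the most abundant genes 2311.

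Members past the threshold with letrozole in the average of the lines numbered 0, and 2 with median-ratio scaling, 1 after rescaling and 0 to 1 with single libraries left out. In the Esr1 line they numbered 0, and 2, 2 and 0 to 4 under the same settings. With age in the CYP19A1 line they numbered 0, and 1 (Ifi208) without trend and robust settings and 0 to 1 with single libraries left out. The share of all genes past the threshold in these contrasts is not given by setting, so these counts are not read. Neighbours called numbered 20 of 97 within 5 Mb (20.6%), 8 of 47 within 2 Mb (17.0%) and 28 of 178 within 10 Mb (15.7%), against 7.27% of all genes.

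Of the 67 genes tested in the 3 pathway lists, 4 passed between the lines, and 8 with median-ratio scaling and 7 after rescaling. Of all genes, 7.27%, 11.7% and 12% passed in the same order. For age and the drugs the share of all genes is not given by setting, so those counts are not read as moves of a list. With age 4 passed, and 1 with median-ratio scaling, 0 in each of 6 settings (only the compared groups, macrophage score, no filter, pseudocount 0.1, replicate block, tissue covariates) and 0 to 28 with single libraries left out. With tamoxifen 0 passed, and 4 with median-ratio scaling. With letrozole 1 passed, and 3 with only the compared groups, 3 with the macrophage score (chosen after seeing the data), 8 with median-ratio scaling, 13 after rescaling, 0 with tissue covariates and 0 to 2 with single libraries left out. Of the 10 cell type lists, 11 genes passed between the lines and 18 with median-ratio scaling. With age 2 passed, and 8 with median-ratio scaling, 4 after rescaling, 0 in the same 6 settings and 0 to 11 with single libraries left out. With tamoxifen 0 passed, and 0 to 1 with single libraries left out. With letrozole 14 passed, and 3 without a filter, 0 with tissue covariates and 0 to 18 with single libraries left out. The tissue covariates were the scores of the skeletal muscle, mammary epithelium and macrophage lists. Epithelial markers made up 11 of the 14, so they were adjusted for their own mean. The loss of cell type calls with these covariates or the macrophage score is therefore not read. The cause of these moves was not tested. TPM keeps no depth, so the precision of the low members, Ifi208, Ifi213 and Ifi202b in the Esr1 line, is unknown.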
